A study of Mus musculus with 32 samples.

Results

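The carnitine shuttle genes described here are Cpt1a, Cpt2, Slc25a20, Crat, Crot, Slc22a5 and Bbox1, 7 of the 20076 genes in the count table. They were chosen by what their proteins do, carnitine transport, carnitine synthesis or acyl transfer to carnitine. No measured value set the choice, but earlier results of these data were known when it was made. All 7 passed the filter on low counts. Their Ensembl identifiers in the table are, in the same order, ENSMUSG00000024900, ENSMUSG00000028607, ENSMUSG00000032602, ENSMUSG00000026853, ENSMUSG00000003623, ENSMUSG00000018900 and ENSMUSG00000041660. Liver RNA came from 32 male C57BL/6J mice, 4 in each of 8 groups, and was sequenced from the 3′ ends of transcripts. The groups joined genotype (Acadm-knockout, KO, or their wild-type littermates, WT), a semi-synthetic diet (high-fat, HF, or low-fat, LF) eaten for 6 weeks by every mouse, and feeding state (fasted for 16 h, or fed). The 8 groups are thus WT LF fed, KO LF fed, WT HF fed, KO HF fed, WT LF fasted, KO LF fasted, WT HF fasted and KO HF fasted. The labels give ages from 7.5 to 16 without a unit. All mice were of 1 sex and 1 strain. The question addressed is how the liver's entry route for long-chain fatty acids differed with fasting, with the diet and with the loss of MCAD, the medium-chain acyl-CoA dehydrogenase that Acadm encodes.

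A pair of mice was left out, so that 30 mice were compared and the WT LF fed and KO HF fasted groups held 3 mice each. In KO HF fasted replicate 4, 12 heart marker genes summed to 41809 CPM (counts scaled to a common library size by TMM) and 10 hepatocyte markers to 824 CPM, against 43918 CPM or more of hepatocyte markers in the 30 mice on the same scale. WT LF fed replicate 2 was left out as an outlier, with 39501 CPM of hepatocyte markers. Total counts ran from 2031053 to 4292200 per mouse. All WT LF fed mice were sequenced on lane 8, while every other group was spread over lanes 7 and 8. Lane and group therefore cannot be told fully apart in comparisons with the WT LF fed mice. Acadm measured 8.98 to 37.1 CPM in the 15 KO mice and 190 to 748 CPM in the 15 WT mice, which fits the labels of all 30 mice. WT HF fasted replicate 2 held 16206 CPM of 10 acinar pancreas markers and KO HF fed replicate 1 held 2375 CPM, while the other 28 mice held at most 41.1 CPM. KO LF fasted replicates 3 and 4 held 289 and 124 CPM of 6 adrenal cortex markers, against at most 40.9 CPM elsewhere. Kidney markers could not be checked, because 1 of 7 listed genes is in the table.

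A long-chain fatty acid joined to coenzyme A cannot cross the inner mitochondrial membrane. CPT1, at the outer membrane, moves the acyl group onto carnitine, the carrier SLC25A20 exchanges the acylcarnitine for free carnitine, and CPT2 puts the acyl group back onto coenzyme A in the matrix, where β-oxidation begins. Malonyl-CoA, made by acetyl-CoA carboxylase, inhibits CPT1, and in liver many genes of this route are known targets of the fatty acid-sensing nuclear receptor PPARα, which acts during fasting. Carnitine itself is taken up by OCTN2, the protein of Slc22a5, or made in the liver, where BBOX1 carries out the last step. CRAT moves acetyl and other short acyl groups, and CROT moves medium-chain acyl groups that leave the peroxisome.

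The RefSeq windows of Slc22a5, Bbox1 and Cpt1a are printed (GRCm38.p6, 5′ to 3′ on the gene's strand). Each runs from 250 bases before to 50 bases after the annotated start. They show an annotated start of the genes with the largest and the smallest fasting change, and of the gene for the rate-controlling enzyme. RefSeq windows were found for 6 of the 7 genes, all but Crat. The windows lie at chr11:53891654-53891953 (minus strand, Slc22a5), chr2:110305676-110305975 (minus strand, Bbox1) and chr19:3323051-3323350 (plus strand, Cpt1a). Those of Bbox1 and Cpt1a lie inside the gene intervals given below, and not in front of their outermost ends. Capitals mark the matches of 5 searched motifs, each looked for on both strands. They were the nuclear receptor core AGGTCA, a direct repeat of it written AGGTCANAGGTCA, which contains that core, the CCAAT box, the TATAAA box and the element TGACG.
Slc22a5: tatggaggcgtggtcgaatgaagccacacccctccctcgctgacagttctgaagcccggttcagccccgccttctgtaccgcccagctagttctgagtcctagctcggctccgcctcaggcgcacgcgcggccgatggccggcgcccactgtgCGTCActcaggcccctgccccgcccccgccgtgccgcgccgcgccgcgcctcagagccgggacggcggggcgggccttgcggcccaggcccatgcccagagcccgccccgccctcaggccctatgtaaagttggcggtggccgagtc
Bbox1: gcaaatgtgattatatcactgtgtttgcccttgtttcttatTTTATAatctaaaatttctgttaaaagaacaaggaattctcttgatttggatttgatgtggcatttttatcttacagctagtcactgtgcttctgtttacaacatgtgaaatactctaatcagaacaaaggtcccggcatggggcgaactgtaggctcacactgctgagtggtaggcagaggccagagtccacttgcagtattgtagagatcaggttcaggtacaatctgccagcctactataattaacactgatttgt
Cpt1a: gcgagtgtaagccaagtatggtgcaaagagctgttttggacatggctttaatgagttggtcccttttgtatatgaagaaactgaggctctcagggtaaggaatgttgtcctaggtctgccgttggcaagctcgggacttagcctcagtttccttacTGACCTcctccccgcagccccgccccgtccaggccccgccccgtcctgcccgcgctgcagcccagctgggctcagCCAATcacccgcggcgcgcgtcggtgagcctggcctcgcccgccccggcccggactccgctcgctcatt
The Slc22a5 window was 72.7% G and C and the Bbox1 window 39.3%, with 62.3% for Cpt1a and a median of 52.7% over all 32851 windows. Of all windows, 6.08% were as rich in G and C as that of Slc22a5 or richer, and 9.48% as poor as that of Bbox1 or poorer. The Cpt1a window holds AGGTCA on the opposite strand at -94 from the start, a motif in 16.3% of all windows, and CCAAT at -19, in 37.4%. Slc22a5 has TGACG on the opposite strand at -97 (20.8% of windows) and Bbox1 has TATAAA on the opposite strand at -209 (13.6%). Crot has CCAAT at -74, and none of the 5 motifs is in the windows of Cpt2 and Slc25a20. The direct repeat AGGTCANAGGTCA, in 0.0396% of all windows, was in none of the 6. These matches are letters in a window, and no binding was measured.

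Fasting raised 6 of the 7 genes, averaged over genotype and diet: the carnitine importer Slc22a5 4.38-fold, Crat 3.57-fold, Cpt1a 2.63-fold, Slc25a20 2.22-fold, Cpt2 2.08-fold and Crot 1.85-fold. Bbox1, for carnitine synthesis, differed by 1.21-fold and did not pass. Among all 11566 genes tested, 9.77% rose and 18.9% changed either way (edgeR quasi-likelihood F test, adjusted p under 0.05). Ordered by p, Slc25a20 stood at place 8, Slc22a5 at 10, Cpt1a at 23 and Cpt2 at 35 of the 11566 genes. The median log2 fold change of the 7 genes was 1.15, against -0.0022 for all genes. Within the 2 sequencing lanes, 5 of the 7 passed on lane 7 (3.04% of all genes either way) and 7 on lane 8 (11.8%), where Bbox1 (0.40, adjusted p = 0.0098) was also called. In whole liver, a difference in the share of a cell type cannot be told apart from one in RNA per cell. Sums of the 6 adipose markers were also higher in fasted mice (median 43.1 CPM, against 1.92 fed), hepatocyte marker sums overlapped (43520 to 59715 fed and 44059 to 66465 fasted), and Kupffer marker sums were lower in fasted mice by median (269 CPM, against 354 fed) with overlapping ranges. The part of the adipose and Kupffer values in these results was not tested.

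**Figure D1:**
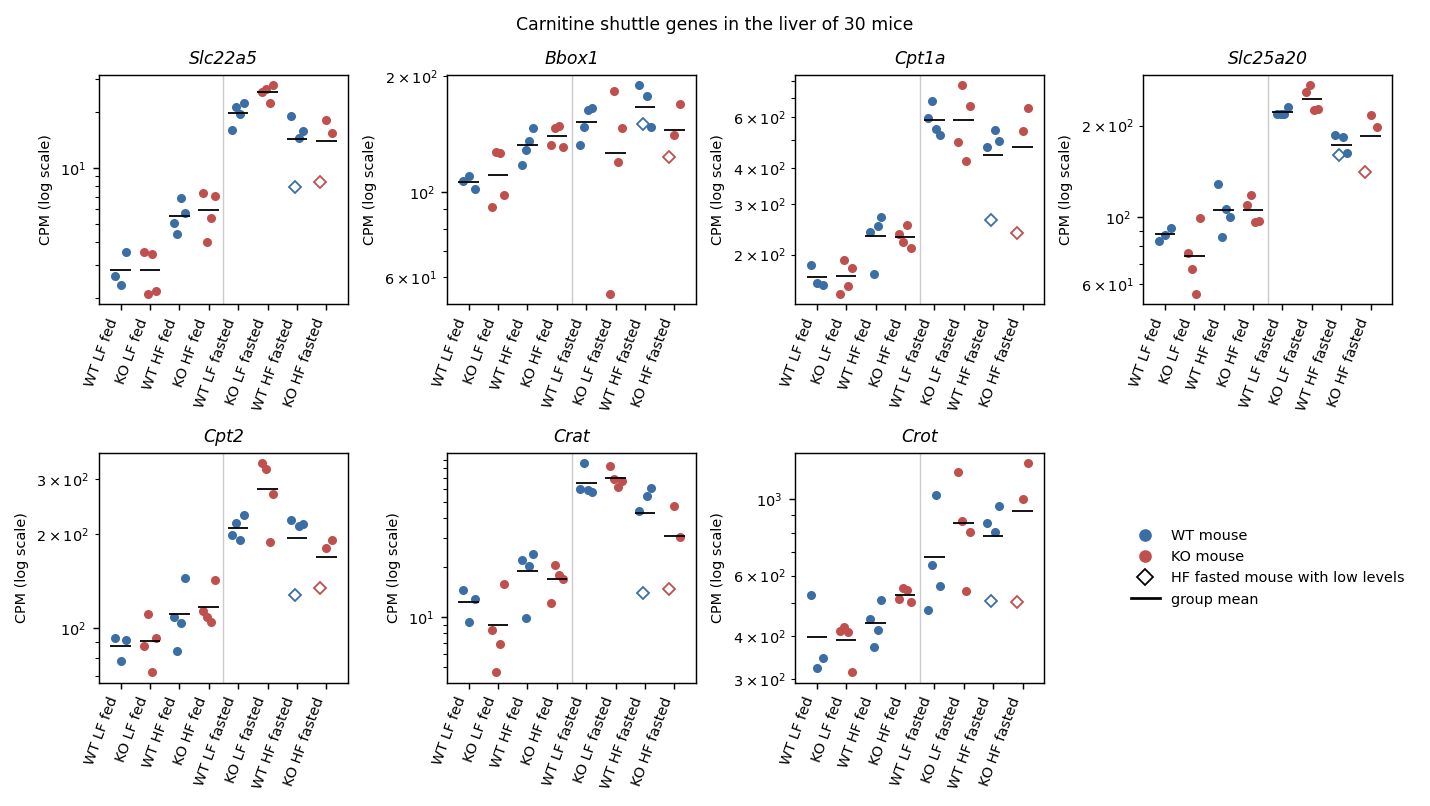
CPM (log scale) of each gene in each of the 30 mice, by group, with WT in blue, KO in red, the group mean as a black bar and open diamonds for WT HF fasted replicate 2 and KO HF fasted replicate 1. Slc22a5 and Slc25a20 show no fasted mouse at or under a fed one, and Bbox1 shows broad overlap.

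Slc22a5 (chr11:53864542-53891660, minus strand, GRCm38), the plasma membrane carnitine transporter, had the largest fasting fold of the 7 genes. In fed mice on LF it measured 2.64, 2.35 and 3.55 CPM in WT and 3.52, 2.11, 3.43 and 2.19 CPM in KO, from 5 to 11 counts per mouse. In fed mice on HF it measured 5.05, 4.39, 6.85 and 5.69 CPM in WT and 7.34, 3.99, 5.41 and 7.05 CPM in KO. Every fed HF mouse was therefore above every fed LF mouse. Fed HF and fed LF mice did not overlap, in either direction, for 0.372% of all genes tested. However, the left-out WT LF fed replicate 2, at 5.05 CPM, fell inside the HF range. Fasted on LF, it reached 16.0, 21.3, 19.4 and 22.3 CPM in WT and 25.6, 26.3, 22.2 and 27.8 CPM in KO. Fasted on HF, the WT mice measured 19.0, 7.90, 14.4 and 15.8 CPM and the KO mice 8.37, 18.0 and 15.4 CPM, so that 1 mouse of each genotype lay near the fed range. All 15 fasted mice still exceeded all 15 fed mice, as they also did for Slc25a20. Fasted and fed mice did not overlap, in either direction, for 0.294% of all genes tested. The log2 fold change was 2.13 (95% interval 1.81 to 2.45, edgeR adjusted p = 7.6e-13).

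Bbox1 (chr2:110262697-110314560, minus strand), the enzyme that makes carnitine from γ-butyrobetaine, had the smallest fasting fold of the 7 genes. Fed mice ran from 91.3 CPM over a median of 126.9 to 148 CPM, and fasted mice from 54.3 over 148 to 189 CPM, so the groups overlapped throughout. The lowest of the 30 mice was KO LF fasted replicate 1, at 54.3 CPM beside 183, 119 and 146 CPM in its group. The log2 fold change of 0.27 (0.06 to 0.48) gave an edgeR adjusted p of 0.0598. It passed when KO LF fasted replicate 1 or KO HF fasted replicate 1 was left out, with WT LF fed replicate 2 kept, with lane as a term, on lane 8 alone, and without the low pair of HF fasted mice (0.31, edgeR adjusted p = 0.041). No diet or genotype comparison of Bbox1 passed either.

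Cpt1a (chr19:3322334-3385733, plus strand), the liver form of the enzyme that commits long-chain acyl groups to mitochondria, ran from 146 CPM over a median of 192 to 270 CPM in fed mice and from 237 over 538 to 775 CPM in fasted mice. The log2 fold change was 1.40 (1.16 to 1.63, edgeR adjusted p = 3.1e-11). WT LF fasted mice measured 595, 684, 547 and 522 CPM and KO LF fasted mice 490, 775, 423 and 654 CPM, all above every fed mouse. WT HF fasted mice measured 474, 264, 543 and 495 CPM and KO HF fasted mice 237, 538 and 645 CPM. WT HF fasted replicate 2 and KO HF fasted replicate 1 were thus the only fasted mice within the fed range. The muscle form Cpt1b had 0 to 1 counts and the brain form Cpt1c 0 to 5 counts in every library. Cpt1b's 3′ end lies inside a readthrough gene on its strand, so its reads may have been left uncounted as ambiguous. Cpt1b had 0 counts also in KO HF fasted replicate 4, where heart markers summed to 41809 CPM. Its counts are therefore uncertain and do not show its level in liver, and the cause of the low counts was not tested.

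Slc25a20 (chr9:108662088-108684641, plus strand), the carnitine/acylcarnitine carrier of the inner membrane, ran from 55.6 CPM over 96.1 to 129 CPM in fed mice and from 141 over 218 to 272 CPM in fasted mice. Its log2 fold change was 1.15 (0.98 to 1.32, edgeR adjusted p = 3.4e-13), with the narrowest interval of the 7 genes. Cpt2 (chr4:107903981-107923610, minus strand), which re-forms acyl-CoA in the matrix, ran from 72.1 CPM over 104 to 145 CPM in fed mice and from 128 over 213 to 338 CPM in fasted mice. The log2 fold change of Cpt2 was 1.06 (0.86 to 1.26, edgeR adjusted p = 1.5e-10). On LF, every fasted mouse exceeded every fed mouse for Cpt1a, Cpt2, Slc25a20, Crat and Slc22a5. On HF this held for Slc25a20 and Slc22a5. Fasted and fed mice did not overlap, in either direction, for 5.91% of all genes tested on LF and 0.7% on HF.

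Crat (chr2:30400471-30415813, minus strand), the acetyl transferase, ran from 4.64 CPM over 14.7 to 24.2 CPM in fed mice and from 13.9 over 58.7 to 85.4 CPM in fasted mice. Its log2 fold change was 1.84 (1.45 to 2.23, edgeR adjusted p = 2.0e-08). The 16 mice sequenced on lane 7, none of them WT LF fed, gave a Crat log2 fold change of 1.64 that did not pass alone (edgeR adjusted p = 0.082). Dolpp1, on the opposite strand, covers the 3′ end of Crat and had 6 to 76 counts. The strand setting of the counting is not given in the sources used here. If strand was ignored, reads over both genes would be left uncounted as ambiguous, so the counts of Crat may be too low. Crot (chr5:8966033-8997324, minus strand), the peroxisomal octanoyl transferase, ran from 314 CPM over 424 to 550 CPM in fed mice and from 476 over 803 to 1272 CPM in fasted mice. The log2 fold change of Crot was 0.88 (0.62 to 1.15, edgeR adjusted p = 4.8e-06), and its groups overlapped. Levels of different genes are not compared here, since a tag count per transcript has no length scale.

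The group means (mean ± SD) of 3 members had gaps between neighbours in their order. Slc22a5 ran upward from KO LF fed (2.81 ± 0.77 CPM, n = 4) and WT LF fed (2.85 ± 0.63, n = 3) over WT HF fed (5.50 ± 1.05, n = 4) and KO HF fed (5.95 ± 1.56, n = 4) to KO HF fasted (13.9 ± 5.0, n = 3), WT HF fasted (14.3 ± 4.7, n = 4), WT LF fasted (19.7 ± 2.8, n = 4) and KO LF fasted (25.4 ± 2.4, n = 4). Neighbours in that order overlapped except at the step from LF fed to HF fed and at the step from fed to fasted. Slc25a20 had the fed groups at 74.4 ± 18.3 (KO LF), 87.4 ± 4.3 (WT LF), 105 ± 18 (WT HF) and 105 ± 11 CPM (KO HF), then a gap. The fasted groups of Slc25a20 followed at 173 ± 14 (WT HF), 185 ± 40 (KO HF), 221 ± 6 (WT LF) and 246 ± 24 CPM (KO LF), with a second gap between HF and LF. For Cpt1a the gap in the order lay between KO LF fed (168 ± 21 CPM) and KO HF fed (230 ± 19 CPM), and all later neighbours overlapped. Neighbours overlapped throughout for Cpt2, Crat, Crot and Bbox1.

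Set out by genotype and diet, the fasting estimates were larger on LF than on HF in both genotypes for 6 of the 7 genes, all but Crot. On LF, 5 members rose in WT, where 3.75% of all genes rose, and 6 rose in KO, where 7.26% did. On HF, 4 rose in WT (0.268% of all genes) and 2 in KO (0.294%). Slc22a5 had log2 fold changes of 2.78 and 3.15 on LF (WT and KO) and 1.37 and 1.22 on HF, the last with an edgeR adjusted p of 0.0577. Crat followed with 2.39 and 2.93 on LF, and 1.17 and 0.86 on HF, where neither passed. Cpt1a had 1.81 and 1.80 on LF and 0.93 and 1.04 on HF, all 4 past the threshold. Slc25a20 had 1.34 and 1.72 on LF and 0.72 and 0.82 on HF, again all 4 past it, while Cpt2 had 1.26, 1.63, 0.82 and 0.53 in that order, and the last did not pass. Crot had 0.76 (not passing) and 1.13 on LF and 0.84 and 0.81 on HF, neither passing. Bbox1 had 0.52, 0.19, 0.33 and 0.05, none past the threshold.

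The HF counts rest on few mice. On LF, the count of 5 in WT became 6 without WT LF fed replicate 1, KO LF fasted replicate 1 or KO HF fasted replicate 1, and the count of 6 in KO did not move with any 1 mouse. The count of 4 in WT fell to 0 without WT HF fed replicate 2 or 3 or WT HF fasted replicate 1, 3 or 4, to 1 without WT HF fed replicate 1 or 4, and rose to 6 without WT HF fasted replicate 2. The count of 2 in KO fell to 0 without KO HF fed replicate 3 or 4 or KO HF fasted replicate 2 or 3, to 1 without KO HF fed replicate 1 or 2, and rose to 4 without KO HF fasted replicate 1. Of the 4 called in WT, Cpt1a lost its call in 20 of the 30 fits that leave out 1 mouse, and in 6 of 11 other settings. With both low mice left out, 6 genes rose in WT and 5 in KO on HF, while 1.47% and 1.11% of all genes passed either way, against 0.424% and 0.527% over 30 mice.

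**Figure D2:**
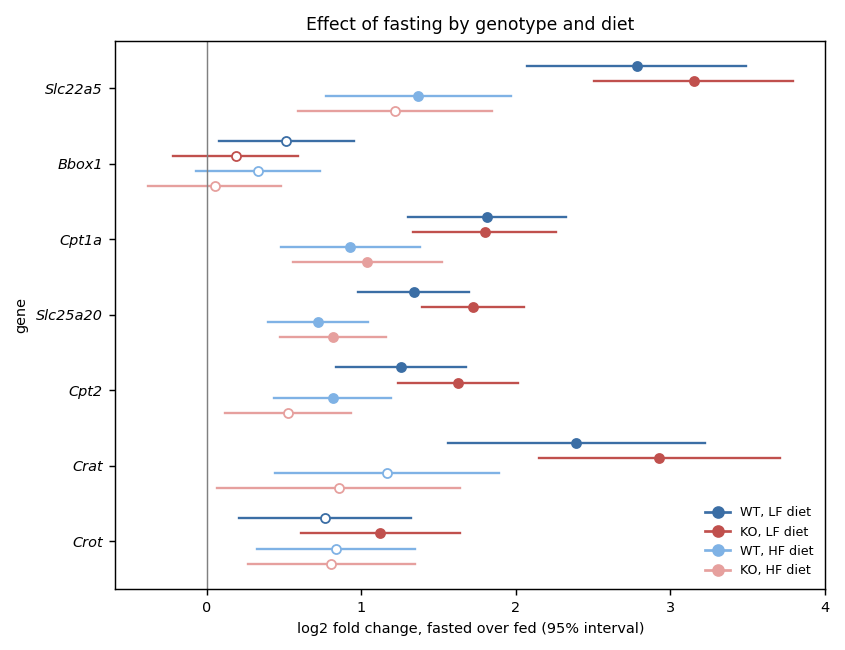
Log2 fold change of fasted over fed mice (x axis) for each gene (y axis) in 4 genotype and diet combinations, with 95% intervals as bars, filled points for an adjusted p under 0.05 and open points otherwise. In each genotype the LF point lies to the right of the HF point for Slc22a5, Cpt1a, Slc25a20, Cpt2 and Crat, and the 4 points of Crot and of Bbox1 lie close together.

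A test of the difference itself, the fasting change on HF minus that on LF, gave a lower change on HF for 5 of the 7 genes, where 1.2% of all genes tested were lower (2.46% either way). The differences in log2 fold change were -1.67 for Slc22a5 (-2.32 to -1.03, edgeR adjusted p = 0.0022), -1.65 for Crat (-2.42 to -0.87, adjusted p = 0.0156), -0.82 for Cpt1a (-1.29 to -0.35, adjusted p = 0.0470), -0.77 for Cpt2 (-1.17 to -0.38, adjusted p = 0.0237) and -0.76 for Slc25a20 (-1.10 to -0.43, adjusted p = 0.0076). Crot (-0.12, -0.65 to 0.40) and Bbox1 (-0.16, -0.58 to 0.26) did not pass. A difference of -1.67 means that the fasting fold of Slc22a5 on HF was 0.314 of that on LF. The median over the 7 genes was -0.77, against -0.0086 for all genes tested. Of all genes tested, only 18.9% changed with fasting on average. Fasting genes on none of the gene lists also had a smaller change on HF, as given below.

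WT HF fasted replicate 2 and KO HF fasted replicate 1 stood apart from the other HF fasted mice. On a scale built from 1091 genes that rose and 1049 that fell with fasting and stand on none of the gene lists, with fed mice at a mean of 0 and fasted mice at a mean of 1, this pair stood at 0.39 and 0.48. The other 5 HF fasted mice stood between 0.82 and 0.91 and the LF fasted mice between 1.04 and 1.43. Fed mice stood between -0.17 and -0.02 on LF and between 0.03 and 0.18 on HF. On this scale, fed and fasted mice thus lay closer together on HF than on LF. A smaller fasting change on HF was therefore not particular to the shuttle genes. Pancreas markers were high in the first of the pair (16206 CPM) and not in the second (1.29 CPM), and adipose markers were low in both (1.13 and 3.22 CPM, against 19.3 to 49.0 CPM in the other 5). Both were sequenced on lane 7, as were WT HF fasted replicate 1 and KO HF fasted replicate 2, and the part of these values in the difference was not tested. Without both mice, 3 of the 7 genes passed, where 1.24% of all genes passed either way: Slc22a5 at -1.44 (adjusted p = 0.0093), Crat at -1.34 (adjusted p = 0.0105) and Slc25a20 at -0.66 (adjusted p = 0.0405). Cpt1a was then -0.57 (-0.94 to -0.19, adjusted p = 0.140) and Cpt2 was -0.62 (-1.001 to -0.24, adjusted p = 0.107). Cpt1a also lost its call in 21 of the 30 fits that leave out 1 mouse, and Cpt2 in those without WT LF fed replicate 3 or KO HF fasted replicate 1, which left 3 calls each. Slc22a5, Crat and Slc25a20 passed in all 30 of these fits. In 11 other settings, which include leaving out the low pair, Cpt1a lost its call in 7, Cpt2 in 2 and Crat and Slc25a20 in 1 each. Slc22a5 passed in all 11.

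**Figure D3:**
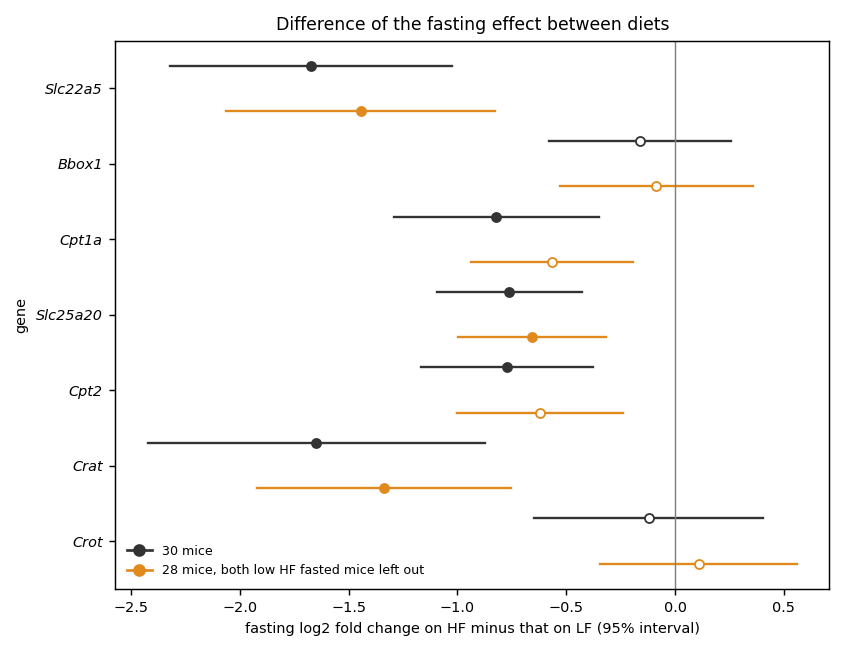
Fasting log2 fold change on HF minus that on LF (x axis) for each gene (y axis), with 95% intervals as bars, over 30 mice (black) and over 28 mice without the low pair of HF fasted mice (orange), filled where the adjusted p is under 0.05. The points of Slc22a5 move from -1.67 to -1.44 and those of Cpt1a from -0.82 to -0.57, and Crot and Bbox1 span 0 in both.

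Diet alone changed none of the 7 genes past the threshold, either averaged over genotype and feeding (3.49% of all genes changed) or in WT fed (0.0778%), WT fasted (1.12%), KO fed (0.00865%) or KO fasted mice (1.68%). Limma voom and DESeq2 also called 0 of the 7 in the average (3.6% and 5.08% of all genes). In KO fasted mice DESeq2 called Cpt2 and Crat (3.33% of all genes) and voom called Slc22a5 (1.53%). Cpt2 passed there by edgeR without KO LF fasted replicate 3, WT HF fed replicate 2 or 4 or KO HF fed replicate 4, and Cpt2 and Crat passed without WT HF fasted replicate 2. At an unadjusted p under 0.05, 1 of the 7 and 15.8% of all genes passed in the average, the 1 being Bbox1 (log2 fold change 0.24, 0.03 to 0.45, edgeR adjusted p = 0.222). The direction of the estimates differed between feeding states. In fed mice all 7 genes had higher estimates on HF, with Slc22a5 at 0.95 in WT (0.21 to 1.69) and 1.07 in KO (0.38 to 1.75), Slc25a20 at 0.50 in KO (0.17 to 0.82) and Crat at 0.90 in KO (0.09 to 1.70). Those 4 log2 fold changes had intervals above 0 but edgeR adjusted p-values of 0.764, 0.364, 0.376 and 0.623. In fasted mice Cpt1a, Cpt2, Slc25a20, Crat and Slc22a5 had lower estimates on HF in both genotypes. Without the low pair of HF fasted mice, Cpt1a in KO (0.02) and Cpt2 in WT (0.05) turned to the other side of 0, and no member passed in either genotype. Over all 30 mice, the lowest estimate in fasted mice was Crat at -1.18 in KO (-1.95 to -0.41, edgeR adjusted p = 0.113). Slc22a5 followed at -0.87 in KO (-1.46 to -0.27, adjusted p = 0.131) and Cpt2 at -0.73 in KO (-1.14 to -0.32, adjusted p = 0.0513). Without the low pair, Crat, Slc22a5 and Cpt2 in KO were -0.85, -0.61 and -0.59 (edgeR adjusted p = 0.243, 0.514 and 0.232). Slc25a20 in fasted mice was the gene whose HF and LF ranges did not overlap, at 141 to 217.5 CPM on HF and 217.9 to 272 CPM on LF, which held for 1.26% of all genes. Its log2 fold changes, -0.35 in WT and -0.41 in KO, did not pass (edgeR adjusted p = 0.326 and 0.269).

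No member passed the test between KO and WT mice in any condition. Acadm itself had a log2 fold change of -4.44 (edgeR adjusted p = 6.6e-27) and was the 1 gene of 11566 that passed in the average over conditions (0.00865%). Averaged over conditions, the KO to WT log2 fold changes and 95% intervals were 0.02 (-0.21 to 0.25) for Cpt1a, 0.09 (-0.11 to 0.28) for Cpt2 and 0.01 (-0.16 to 0.17) for Slc25a20. The other members had 0.11 (-0.22 to 0.43) for Slc22a5, -0.08 (-0.29 to 0.13) for Bbox1, 0.20 (-0.06 to 0.47) for Crot and -0.25 (-0.64 to 0.13) for Crat. These intervals reach from a 0.643-fold lower bound for Crat to a 1.38-fold upper bound for Crot, and differences of that size cannot be told from 0 with 30 mice. No member had an unadjusted p under 0.05 in the average, against 2.9% of all genes, and DESeq2 and voom also called none of the 7. By condition, 0 of the 7 passed in LF fed (0.0193% of all genes), HF fed (0.00998%), LF fasted (0.0104%) and HF fasted mice (0.0096%). The 28 log2 fold changes ran from -0.49 (Crat, HF fasted) to 0.41 (Cpt2, LF fasted), and 1 of the 28, Crot in HF fed mice (0.28, 0.01 to 0.56), had an unadjusted p under 0.05 (edgeR adjusted p = 0.999), as did 5.61%, 3.92%, 2.28% and 3.69% of all genes in those 4 conditions. Intervals were wide for Slc22a5 in LF fed mice (-1.30 to 1.29), where it had 5 to 11 counts.

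The KO and WT ranges of a member overlapped in every condition, while they did not for 6.68%, 2.65%, 2.13% and 5.27% of all genes, in the same order of conditions. No member passed the test of the fasting change by genotype (0 of 7, and 0 of 11566 genes by edgeR, DESeq2 and voom, with 4.95% at an unadjusted p under 0.05 by edgeR). The largest such difference was that of Bbox1, -0.30 (-0.72 to 0.12), followed by Slc25a20 at 0.24 (-0.09 to 0.57). The test of the diet change by genotype called none either (0 of 7 and 0 of 11566 genes by the same 3 tools, with 3.43% at an unadjusted p under 0.05), with values from -0.30 (Cpt2, -0.69 to 0.10) to 0.11 (Crot, -0.42 to 0.64).

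**Figure D4:**
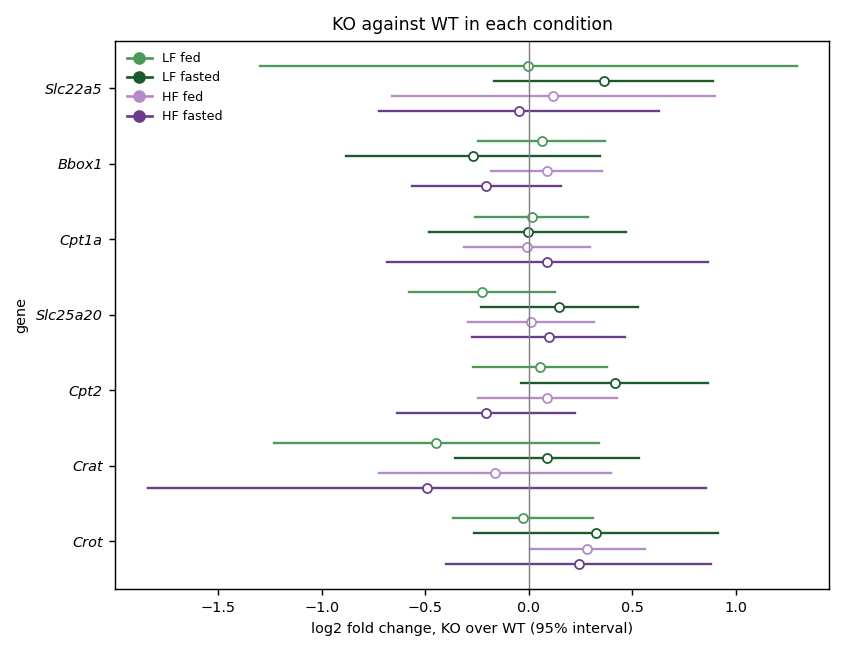
Log2 fold change of KO over WT mice (x axis) for each gene (y axis) in each pairing of diet and feeding state, with 95% intervals as bars and open points, since none had an adjusted p under 0.05. Points lie between -0.49 and 0.41, and 27 of the 28 intervals include 0.

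The genes that supply the shuttle and use its product were counted by gene lists chosen with earlier results of these data known. Fasted over fed, averaged over genotype and diet, 9.77% of all genes tested rose and 18.9% changed either way. In the list for malonyl-CoA and fatty acid activation, 3 of 11 genes rose and 5 fell in that comparison. Both acetyl-CoA carboxylases, which make the CPT1 inhibitor, fell (Acaca by 1.45 and Acacb by 1.37 on the log2 scale), and malonyl-CoA decarboxylase, Mlycd, which removes it, rose by 0.61. Of the acyl-CoA synthetases and transporters, Acsl1 (1.52) and Slc27a2 (1.13) rose, while Acsl3, Acsl4 (fell by 0.46) and Acsl5 (fell by 0.43) went down. Slc27a4, Slc27a5 and the binding protein Fabp1 had 0.19, 0.09 and -0.08 and did not pass.

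Downstream, 12 of 15 mitochondrial β-oxidation genes rose with fasting and none fell (median 0.69). Of all genes tested, 9.77% rose in that comparison and 18.9% changed either way. The isomerase Eci2 had a log2 fold change of 1.17, Acadm 1.07, Hadhb, of the trifunctional protein, 1.02, Etfdh, which hands electrons to the respiratory chain, 0.91 and Acadl, long-chain acyl-CoA dehydrogenase, 0.69. Acads, Echs1 and Etfa did not pass. In the peroxisomal list, whose products CROT exports, 9 of 11 rose and none fell (median 0.98), from Ehhadh, the bifunctional enzyme, at 3.05 to the transporter Abcd3 at 0.44, with the thioesterase Acot4 at 1.56. Of 11 regulators, 6 rose and 1 fell. Creb3l3 rose by 0.82 and Ppara by 0.63, and Srebf1, the activator of lipogenic genes, fell by 2.40. Of 10 other carnitine genes, 7 are in the table and 2 could be tested, Slc25a29 at 0.93 (adjusted p = 0.165) and Aldh9a1, of carnitine synthesis, at 0.24 (adjusted p = 0.0519), neither passing.

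By diet, averaged over genotype and feeding, 3.49% of all genes tested passed either way. On HF, Acacb fell by 1.19, Acsl4 by 0.41, Ppargc1a by 0.54 and Lpin1 by 1.18, while Hadh rose by 0.36 and Abcd2 by 1.04. In the test of fasting by diet, 1.2% of all genes tested were lower on HF and 2.46% passed either way. There, 1 of 11 malonyl-CoA and activation genes, 2 of 15 mitochondrial, 1 of 11 peroxisomal and 0 of 11 regulator genes passed. All were lower on HF: Acsl1 (-0.85), Acadl (-0.59), Eci2 (-0.66) and Acaa1a (-0.89). The list medians were -0.08, -0.45, -0.69 and -0.35 in that order, against -0.77 for the shuttle genes and -0.0086 for all genes tested. The peroxisomal list thus had a median near that of the shuttle genes, though few of its genes passed.

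**Figure D5:**
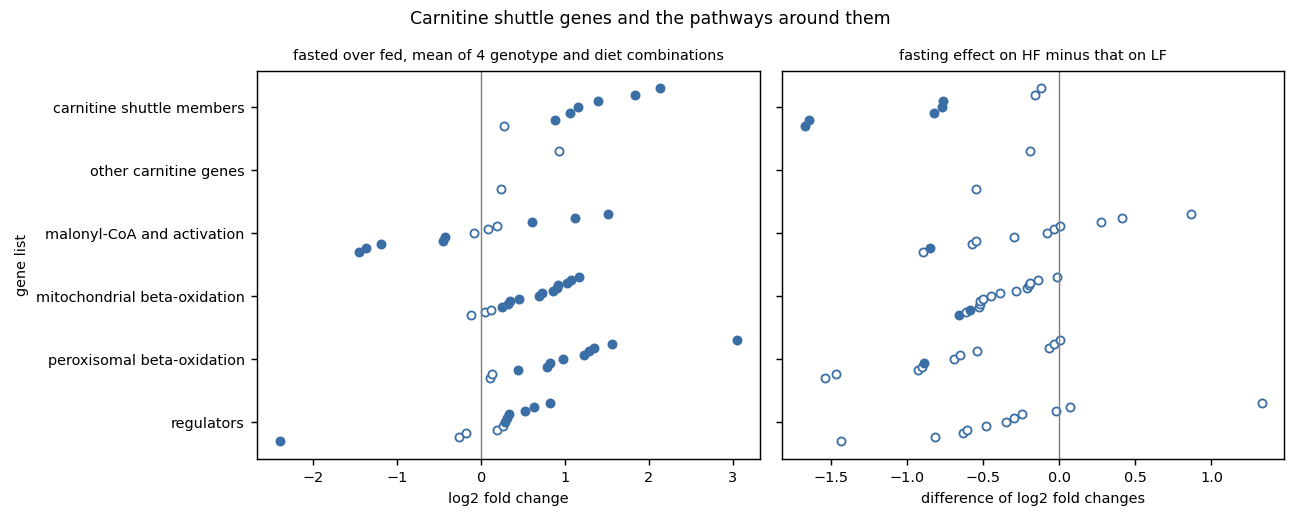
Log2 fold change of fasted over fed mice (left, x axis) and fasting change on HF minus that on LF (right, x axis) for each tested gene of 6 lists (y axis), filled where the edgeR adjusted p was under 0.05. On the left, 6 of 7 shuttle genes, 12 of 15 mitochondrial and 9 of 11 peroxisomal β-oxidation genes are filled to the right of 0, and on the right 5 of 7 shuttle genes are filled to the left. Of all genes tested, 9.77% rose with fasting and 1.2% had a lower fasting change on HF.

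Over the 8 group means the members other than Bbox1 had Pearson correlations of 0.82 to 0.99 with each other, and Bbox1 0.47 to 0.58 with the rest, as a description over 8 groups that share their feeding state. Searching 7376 genes with a mean of at least 10 CPM for the pattern most like each member gave Cyp4a10 (0.996), a fatty acid ω-hydroxylase, for Cpt1a, and Def8 (0.995) and Acadl (0.995) for Cpt2. Slc25a20 was most like Pex14 (0.996), a peroxisomal import protein, and Crat like Pex19 (0.997), also of peroxisome assembly, and Cyp7a1 (0.995). Slc22a5 was most like Rab12 (0.996) and Angptl4 (0.996), the fasting-induced lipase inhibitor that was also among the 3 most alike for Slc25a20 (0.995). Crot was most like Grhpr (0.990) and Bbox1 like Cyp4f15 (0.987).

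Between mice of 1 group, the 21 pairs of members correlated at a median of 0.49 (from -0.07 to 0.69) over 30 mice, as residuals of log2 CPM from the group means. Cpt1a and Cpt2 stood at 0.69, Cpt1a and Crat at 0.66 and Slc25a20 and Crat at 0.62. Over 28 mice without the low pair the median was 0.14 (from -0.28 to 0.58), with Cpt1a and Cpt2 at 0.54, Cpt1a and Crat at 0.29 and Slc25a20 and Crat at 0.58. The members of each mouse share a library and a scaling, and no test was made of these values.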

How the data were processed

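The 7 genes and all gene lists were chosen with earlier results of these data known. Per the labels and the methods, the authors made 3′ QuantSeq libraries, mapped single reads to GRCm38 with HISAT 0.1.5, sorted them with SAMtools 1.2 and counted reads per gene with HTSeq 0.6.1p1 in union mode. The deposited table holds whole-number counts for 20076 genes, without normalization. GENCODE vM21 on the same build gave symbols for 19913 of them, and the other 163 carried 0.125% of counts. Totals were 2031053 to 4292200 per mouse. Samples were grouped by the labels, and each is 1 mouse.

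CPM values were scaled by TMM in edgeR 4.0.16 (R 4.3.3). The main test was edgeR's robust quasi-likelihood F test after filterByExpr (minimum count 10), with Benjamini-Hochberg adjustment over all genes tested, on 30 mice with 1 mean per group, and on the mice of 1 condition for KO to WT. The fitted 95% intervals were computed from the log2 fold change and the F statistic. The test was tested on simulated data. Alternatives used DESeq2 1.42.0, limma voom 3.58.1, other scaling, no filter, all 32 or 31 mice, lane or age terms, a replicate block, within lanes and leaving out each mouse, and, chosen after seeing the data, leaving out the low pair of HF fasted mice or 4 mice with pancreas or adrenal markers. The genes named are the 7, Acadm, Cpt1b, Cpt1c, those list genes past the threshold, and genes among the 3 most alike. A few genes that this rule names are not reported here. Names of list genes that did not pass were added after their values were seen. The replicate numbers did not pair mice (98 same-number pairs, median correlation of residuals 0.0026). No 2 mice of a group were duplicate libraries (chi-square per gene of at least 3.93).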

Additional observations from a re-analysis of the deposited data

Results flagged for a closer look

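A gap test over 42 sets of 4 values, each 1 gene in 1 group of 4 mice, in which chance marks about 1 set in 20, marked 4 values. Cpt2 was lowest in WT HF fasted replicate 2, at 128 CPM, while the other 3 mice of the group had 213 to 222 CPM. Crat was highest in WT LF fasted replicate 2, at 85.4 CPM against 57.2 to 60.0 CPM. Crot was lowest in KO LF fed replicate 4, at 314 CPM against 410 to 424 CPM. Slc25a20 was highest in WT LF fasted replicate 4, at 229.8 CPM, where the others lay within 217.9 to 218.7 CPM.

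The change with fasting differed between diets in the edgeR test of that difference for Slc22a5 (-1.67), Crat (-1.65), Cpt1a (-0.82), Cpt2 (-0.77) and Slc25a20 (-0.76), as HF minus LF log2 fold changes. Of these, Cpt1a and Cpt2 did not pass without the low pair of HF fasted mice. Cpt1a lost its call in 7 of 11 settings other than the main test, that one included.

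In KO HF fasted replicate 4, the mouse left out for its heart markers, Crat measured 95.7 CPM, above the 13.9 to 60.1 CPM of WT HF fasted mice, and Bbox1 measured 2.24 CPM.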

How the results depend on the processing

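Of the counts of members past the threshold, those for fasting in WT HF (4), fasting in KO HF (2), diet in KO fasted mice (0) and fasting by diet (5) moved by over 1.5 times. Limma voom gave 2, 1, 1 and 4, all 32 mice gave 0, 1, 0 and 1, and age as a term gave 2, 2, 0 and 5. The setting of all 32 mice includes KO HF fasted replicate 4, with 41809 CPM of heart and 824 CPM of hepatocyte markers. Its counts are thus not of liver samples alone. Over all genes, in the same order, 0.45%, 0.424%, 1.53% and 2.29% passed by voom, 0%, 0.339%, 1.61% and 0.191% with all 32 mice and 0.389%, 0.432%, 1.36% and 2.78% with age, against 0.424%, 0.527%, 1.68% and 2.46% in the main test. For diet in KO fasted mice, DESeq2 called 2 members (3.33% of all genes). RLE scaling (1.69%), no filter (0.86%), lane as a term (1.58%) and leaving out 4 mice with pancreas or adrenal markers (1.68%) called 1 each. With WT LF fed replicate 2 kept, fasting in KO HF gave 1 (0.138% of all genes). Leaving out the low pair gave 5 for fasting in KO HF (1.11%) and 3 for fasting by diet (1.24%). The causes were not tested. With a replicate block, fasting in KO HF gave 1 in place of 2 (0.259% of all genes). The replicate block moved no other count by over 1.5 times, though Cpt1a lost its call in fasting by diet (adjusted p = 0.0688). Of 30 mice, 6 correlated best with their own number.

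Leaving out each mouse in turn gave 0 to 6 for fasting in WT HF, 0 to 4 in KO HF, 0 to 2 for diet in KO fasted mice, 3 to 5 for fasting by diet, 5 to 6 for fasting in WT LF and 6 to 7 for fasting on average.

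The directions that turned were of values that had not passed. Crot in fasting by diet was 0.11 without the low pair and -0.27 to 0.028 leaving out 1 mouse. Bbox1 in fasting of KO mice was -0.36 on HF with all 32 mice, -0.078 to 0.15 on HF and -0.053 to 0.44 on LF leaving out 1 mouse. In the KO to WT average, Cpt1a was -0.00067 by voom, -0.0900 with all 32 mice, -0.0088 with age, -0.15 in lane 7 and -0.051 to 0.10 leaving out 1 mouse. Slc25a20 was there -0.0051 by voom, -9.8e-05 without the filter, -0.0023 with all 32 mice, -0.032 with age and -0.037 to 0.045 leaving out 1 mouse, Slc22a5 -0.0056 with all 32 mice and Bbox1 0.013 in lane 8. Slc22a5, at 5 to 11 counts in LF fed mice, is the member most limited by depth.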
